A study of Homo sapiens with 12 samples.

Results

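Peaks lying wholly within the 3′ untranslated region (3′ UTR) of mRNAs were examined in RNA immunoprecipitation sequencing (RIP-seq) of METTL16, eIF3a and eIF3b. In RIP-seq an antibody pulls a protein down together with its RNA, which is sequenced beside input RNA set aside before the pull-down. A peak is a stretch of exonic sequence called enriched in the RIP over input, and its fold enrichment is the ratio of the RIP signal to the input signal. A peak was taken when it shared bases, on the same strand, with the 3′ UTR of the Ensembl canonical transcript of the gene named for it, and no base with the coding sequence or stop codon of that transcript. This rule used position only, and 30848 of 101848 peaks (30.3%) met it, on 5649 of the 10750 genes that had a peak and a gene model. A further 490 peaks had no gene model at their position and could not be placed.

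The series holds 12 samples from HepG2 cells, a line established from a human liver cancer: 6 RIP samples, 2 replicates for each of the 3 proteins, and 6 inputs. The cells stably overexpressed 3XFlag-tagged METTL16, eIF3a or eIF3b after infection with expression vectors and were cross-linked with ultraviolet light. Per the labels, METTL16 and eIF3b were pulled down with a Flag antibody and eIF3a with an antibody against eIF3a itself, whereas the names of all 6 lists say flag, so antibody and protein cannot be told apart for eIF3a. Each RIP sample had its own peak list, the inputs entered only through the authors' peak calling, and no control antibody list was used here, so enrichment common to any pull-down cannot be told apart from binding to the tagged protein.

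METTL16 is an RNA methyltransferase that modifies U6 small nuclear RNA and hairpins in the 3′ UTR of MAT2A mRNA, which codes for the enzyme making the methyl donor S-adenosylmethionine. eIF3 is a large complex that scaffolds translation initiation on the small ribosomal subunit, with eIF3a and eIF3b in its core. The 3′ UTR follows the stop codon and is not translated by ribosomes. It holds binding sites for microRNAs and for proteins that control the stability, location and translation of the mRNA, and in primates it often holds Alu elements, repeats derived from 7SL RNA, the RNA of the signal recognition particle. Alu elements lie in either orientation, and neighbours of opposite orientation in one transcript can pair into double-stranded RNA.

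Sequences of MAT2A are shown first because METTL16 is known to act on them. They are on GRCh38, read 5′ to 3′ on the transcript strand and written in DNA letters. Only exact matches of the 9-base METTL16 recognition sequence TACAGAGAA were counted, so variants of it are not included. The MAT2A 3′ UTR (chromosome 2, plus strand, 1509 bases) held 5 such matches, shown in capitals with 10 flanking bases on each side:
MAT2A, base 40 after the stop codon, chr2:85543802-85543830: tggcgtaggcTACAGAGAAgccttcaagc
MAT2A, base 827, chr2:85544589-85544617: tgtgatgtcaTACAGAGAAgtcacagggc
MAT2A, base 1012, chr2:85544774-85544802: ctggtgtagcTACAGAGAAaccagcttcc
MAT2A, base 1127, chr2:85544889-85544917: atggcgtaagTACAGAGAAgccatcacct
MAT2A, base 1350, chr2:85545112-85545140: gctggtgtggTACAGAGAAgccagcttgt

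How many peaks fell in the 3′ UTR was compared first. In METTL16 they were 3764 of 13199 peaks (28.5%) in replicate 1 and 2774 of 13136 (21.1%) in replicate 2. In eIF3a they were 7560 of 21733 (34.8%) and 4620 of 12921 (35.8%), and in eIF3b 5596 of 20832 (26.9%) and 6534 of 20027 (32.6%). Both eIF3a lists lay above the other 4 lists, and the METTL16 and eIF3b lists overlapped. METTL16 averaged 24.8% ± 5.23, eIF3a 35.3% ± 0.686 and eIF3b 29.7% ± 4.08 (SD, n = 2). The exact two-sided permutation test gave p = 0.333 for METTL16 against eIF3a, 0.667 for METTL16 against eIF3b and 0.333 for eIF3a against eIF3b, and 0.333 is the smallest p that 2 lists against 2 allow. No difference between proteins could pass the threshold at this replication.

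A larger share of coding bases than of 3′ UTR bases lay under a peak. In genes with a peak in the list, peaks of any class covered 6.29% to 12.3% of 3′ UTR bases and 16.4% to 24.4% of coding bases, and the coding share was 1.80 to 3.04 times the 3′ UTR share. The 3′ UTR-only peaks had a higher fold enrichment than the coding-only peaks, those that touched coding sequence and neither UTR. Their median fold enrichment was 3.58 and 4.03 in METTL16, 3.31 and 2.80 in eIF3a and 3.57 and 3.37 in eIF3b, against 2.52 to 3.02 for coding-only peaks. This was not particular to the 3′ UTR: peaks over the stop codon (2.99 to 3.73), over the start codon (3.24 to 4.535) and within the 5′ UTR (2.69 to 4.21) also had medians above the coding-only median of their list, and those over the start codon were above the 3′ UTR-only median in 3 of 6 lists. The difference of the medians was 0.34 ± 0.097 on the log2 scale (SD over 6 lists), higher in 6 of 6 lists (exact two-sided sign-flip permutation test over lists, p = 0.031, the smallest that 6 lists allow, adjusted p = 0.0625 over 4 tests). The adjusted value misses the 0.05 threshold. This test takes the 6 lists as separate samples although they share genes and the cell line, so its p measures only how uniform the lists were.

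**Figure D1:**
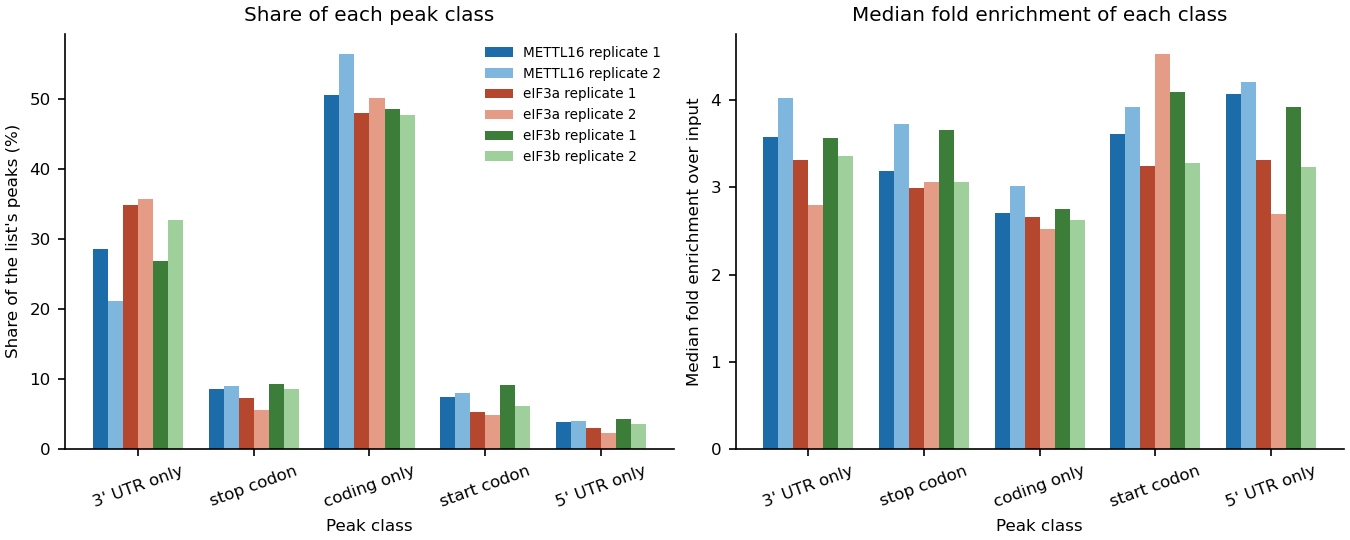
Share of each peak class (left, percent of the list's peaks) and median fold enrichment over input of each class (right), as bars for the 6 lists. The 3′ UTR-only peaks made up 21.1% to 35.8% of a list and had a higher median fold enrichment than coding-only peaks in every list.

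Width and overlap between lists were compared next. The median width of 3′ UTR-only peaks was 179 to 181 bases in each list, and 99.8% or more of their bases lay on the canonical 3′ UTR. The difference in width from coding-only peaks did not pass the threshold (difference of medians -5.17 ± 11.7 bases, exact sign-flip permutation p = 0.25, n = 6). Between 33.0% and 52.6% of 3′ UTR-only peaks were covered over at least 50% of their bases by any peak of the other replicate, against 31.3% to 58.8% of coding-only peaks (difference 0.557 ± 11.6 points, exact sign-flip permutation p = 0.875, n = 6). The Jaccard index, the shared bases divided by all bases under the 3′ UTR-only peaks of a pair of lists, averaged 0.31 ± 0.0517 over the 3 pairs of replicates and 0.27 ± 0.0694 over the 12 pairs of lists of different proteins. The difference of 0.04 did not pass the threshold (exact one-sided permutation test over the 15 pairings of the lists, p = 0.133), and with 0.067 as the smallest p of 15 pairings no value could have. It was 0.0066 without METTL16 replicate 2, 0.0229 without eIF3b replicate 2 and 0.0721 without eIF3a replicate 1. The closest pairs joined different proteins: eIF3a replicate 1 with eIF3b replicate 2 (0.38) and METTL16 replicate 1 with eIF3b replicate 1 (0.373).

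Peaks near the edge of the rule are given without a test. Between 62 and 129 peaks per list started within 30 bases of the stop codon and had a median fold enrichment of 2.20 to 3.12. A further 47 to 147 per list were left out by at most 30 coding bases, with a median of 2.34 to 3.50. Along the 3′ UTR the peaks were spread widely but thinned out at the far end. On a scale from 0 at the stop codon to 1 at the transcript end, the median centre lay at 0.457 ± 0.00456 in METTL16, 0.487 ± 0.0232 in eIF3a and 0.471 ± 8.13e-05 in eIF3b (SD, n = 2). Of 5 equal parts of the 3′ UTR, the last held 11.4% to 15.3% of the centres, fewer than any other part in each list, and 5.15% to 5.80% of the peaks ended within 100 bases of the annotated transcript end.

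Genes with such a peak in both replicates numbered 1230 for METTL16, or 11.5% of the 10695 genes that had a peak in any list and a canonical 3′ UTR. There were 1935 such genes for eIF3a (18.1%) and 2421 for eIF3b (22.6%), and 828 genes (7.74%) had one in all 6 lists. METTL16 and eIF3b shared 1043 genes, 84.8% of the METTL16 genes and 43.1% of the eIF3b genes. METTL16 and eIF3a shared 872 (70.9% and 45.1%), and eIF3a and eIF3b shared 1486 (76.8% and 61.4%). Long 3′ UTRs were peaked more often: the median length was 1360 bases for all genes tested and 2379, 2834 and 2534 bases for the METTL16, eIF3a and eIF3b genes. With the genes in 5 length classes of equal size, 18.8%, 37.8% and 41.7% of genes in the class from 3239 bases up had a peak in both replicates of METTL16, eIF3a and eIF3b. In the class from 1818 to 3237 bases the shares were 18.8%, 29.6% and 34.5%, so that for METTL16 these classes were level. In the class of up to 421 bases they were at most 0.748%. The lists give no expression level of a gene, and its part in these counts was not tested.

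The 10 genes with the highest minimum fold enrichment over the 6 lists were DESI1, POLH, ANAPC16, TRPM7, SGTB, NFIC, TFDP2, ZNF714, C17orf75 and CYP20A1. DESI1, a desumoylating peptidase, had a top fold enrichment of 60.9 and 35.7 in METTL16, 67 and 58.1 in eIF3a and 139 and 184 in eIF3b, and 538 bases at chr22:41599611-41600148 lay under a peak in every list. POLH, the translesion DNA polymerase eta, had 71.5 and 38.1 in METTL16, 24.8 and 25.7 in eIF3a and 106 and 28.6 in eIF3b. ANAPC16, a subunit of the anaphase-promoting complex, had 29.1 and 50, 54.1 and 23.3, and 77.2 and 49.5. NFIC, a nuclear factor I transcription factor, had 22.5 and 23.2, 32.2 and 57.5, and 34.3 and 32.3. TRPM7, an ion channel with a kinase domain, had 27.8 and 26.2, 64.5 and 23.3, and 185 and 61.7. SGTB, a co-chaperone, had 49 and 167, 193 and 22.6, and 90.6 and 129, with the lowest and the highest value both in eIF3a. TFDP2, a partner of E2F factors, had 22.3 to 120 over the 6 lists, ZNF714, a zinc finger protein, 22 to 63.6, C17orf75 21.4 to 67, and CYP20A1, a cytochrome P450, 21.4 to 74.4. Some values recurred between genes with the same deposited p-value, such as 21.4 in METTL16 replicate 2 (0.00012) for C17orf75 and CYP20A1. In the same list TRPM7 and ZNF714 both had 26.2 (1.2e-05). No read counts were used here, so how few reads lie behind such values is unknown.

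In 9 of these 10 genes, all but NFIC, the 3′ UTR held Alu-like sequence in both orientations. This property was looked for after the genes had been seen, so it is described here without a test. Alu-like stretches were found by similarity to 7SL RNA and to the Alu-derived BC200 RNA. They made up 4.47% of the 3′ UTR bases tested and occurred in 24.4% of the 3′ UTRs, in both orientations in 6.69%. In DESI1 antisense stretches at bases 989 to 1201 after the stop codon preceded sense stretches at bases 1239 to 1519, and a single peak in each list covered at least bases 949 to 1486. In ANAPC16 every list had 1 peak over the antisense stretch at bases 979 to 1054 and a separate peak over the sense stretches at bases 2052 to 2265. The first of these peaks ended at base 1395 or before and the second began at base 1755 or after. VHL, the tumour suppressor that targets HIF proteins for degradation, had fold enrichments of 40.6, 19.3, 29.6, 12.8, 51.9 and 27.4 in the order METTL16, eIF3a and eIF3b, replicate 1 first. The 1713 bases under a peak in every list took in, among others, the antisense stretches at bases 1082 to 1215 and 2695 to 2824 and the sense stretches at bases 2121 to 2234 and 3031 to 3163.

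**Figure D2:**
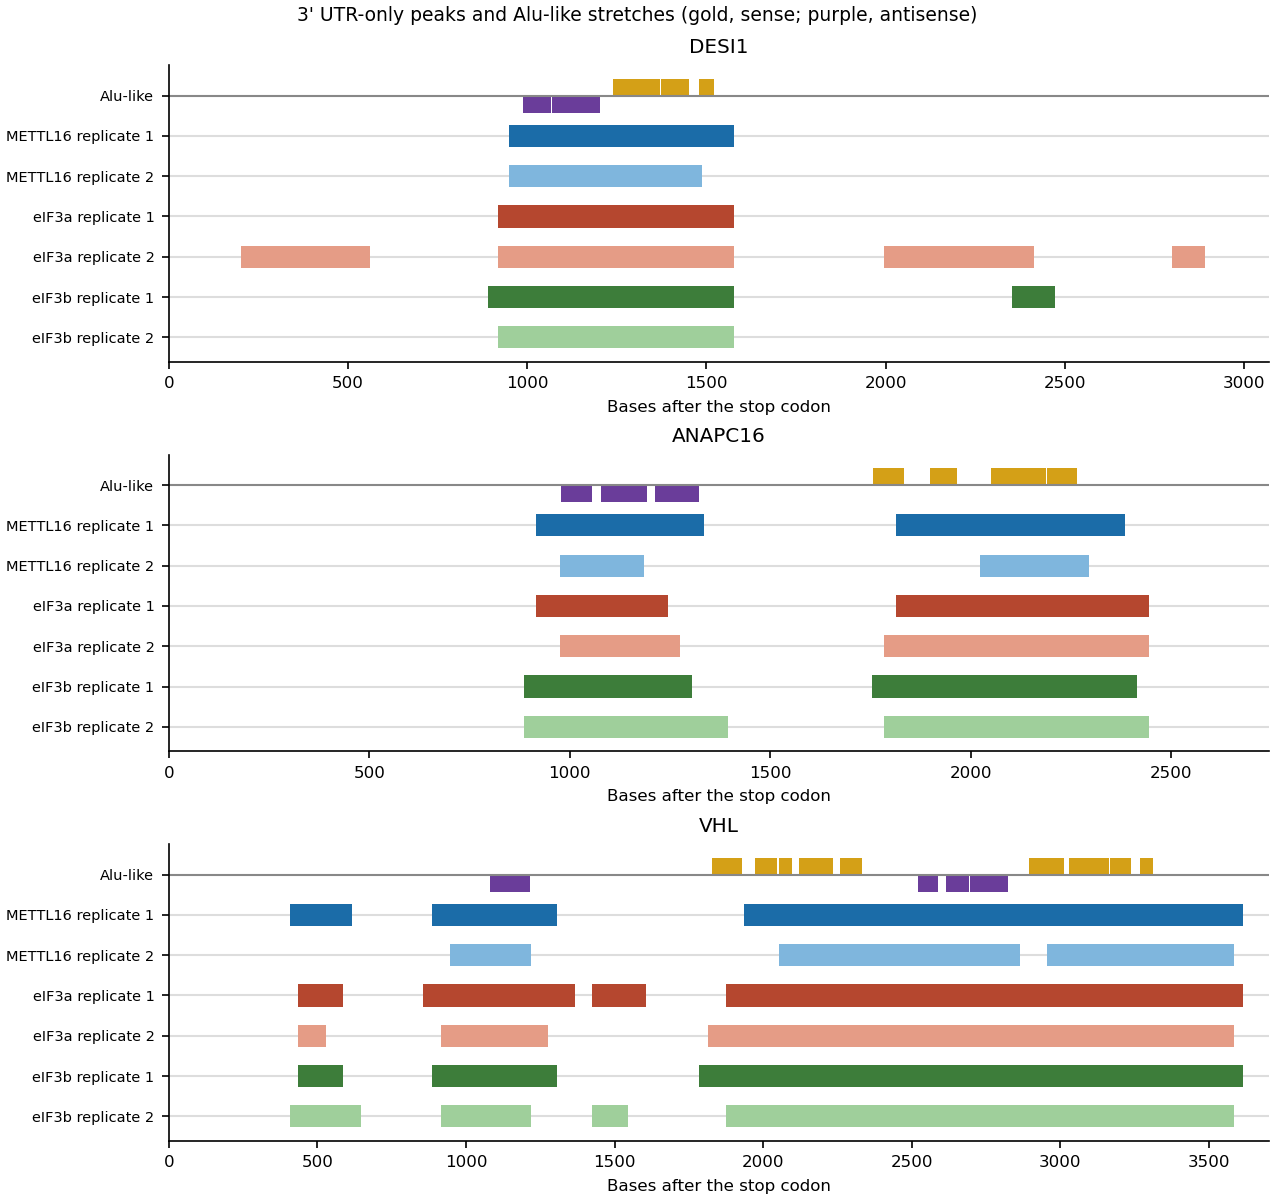
Position of 3′ UTR-only peaks of each list (coloured bars) and of Alu-like stretches (top row, gold for sense and purple for antisense) in the 3′ UTR of DESI1, ANAPC16 and VHL, in bases after the stop codon. The peaks of the 6 lists stack over the Alu-like stretches, between bases 949 and 1486 in DESI1.

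Across all 3′ UTR-only peaks, the share with Alu-like sequence rose with fold enrichment, though not at every step in eIF3b replicate 2. In 150-base windows centred on the peaks, 17.6% and 15.2% (METTL16), 12.6% and 13.9% (eIF3a) and 16.9% and 13.1% (eIF3b) held at least 50 Alu-like bases, against 5.53% to 6.53% of the 150-base tiles of the same 3′ UTRs that no peak of the list touched. Counted over the whole peak instead of a window, the share with at least 50 Alu-like bases was 4.27% to 5.55% in the 25% of peaks with the lowest fold enrichment. In the top 5% it was 79.9% and 39.9% in METTL16, 34.8% and 34.0% in eIF3a and 71.7% and 42.1% in eIF3b. METTL16 replicate 1 and eIF3b replicate 1 stood above the other 4 lists there, and their own second replicates did not. Whole-peak shares cannot be set against the tile shares, as they depend on peak width. Peaks with Alu-like sequence had median widths of 209 to 268 bases and other 3′ UTR-only peaks 151 to 180 bases. The median fold enrichment of peaks with Alu-like sequence was 11.3 and 7.05 in METTL16, 5.95 and 4.50 in eIF3a and 8.92 and 6.36 in eIF3b, and that of all other 3′ UTR-only peaks was 2.61 to 3.72. Alu copies are similar to each other, and how reads matching several of them were handled is not given in the sources used here. Its part in these values was not tested.

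Alu-like elements with a neighbour of opposite orientation were under a peak most often. Elements of at least 150 bases were sorted by whether another one lay within 1000 bases in the same 3′ UTR. At least 50% of the element was under a 3′ UTR-only peak for 26.4% and 16.5% (METTL16), 30.05% and 20.7% (eIF3a) and 34.1% and 27.8% (eIF3b) of the 832 elements with an opposite neighbour. For the 685 elements whose neighbours all had the same orientation, the shares were 5.99% and 3.07%, 12.4% and 8.61%, and 13.7% and 11.4%. For the 1981 elements without a neighbour they were 8.68% and 4.54%, 14.99% and 11.0%, and 13.9% and 13.4%. The first class was above both others in 6 of 6 lists. The first 2 classes lay in 3′ UTRs with median lengths of 4955 and 4557 bases. Elements without a neighbour lay in shorter ones, with a median of 3304 bases. The part of 3′ UTR length in these shares was not tested. The 832 elements with an opposite neighbour lay in 316 genes, and a single peak can cover neighbouring elements, so elements are not separate observations. Restricted to genes with a 3′ UTR-only peak in the list, the shares were 40.7% to 52.3% with an opposite neighbour and 12.5% to 26.5% with same-orientation neighbours only. Elements without a neighbour then reached 19.8% to 31.5%, and the sense copies among them 22.7% to 40.5%, which in eIF3a replicate 2 was level with the 40.7% of elements with an opposite neighbour. Among elements without a neighbour, sense copies were under a peak more often than antisense copies in 6 of 6 lists, with shares of 5.25% to 20.9% and 3.81% to 9.47%. Of the 828 genes with a peak in all 6 lists, 25.8% held both orientations. With 3′ UTRs over 2000 bases only, this was 33.6% of 590 such genes and 16.8% of all 3929 genes tested, whereas Alu-like sequence of any kind occurred in 52.9% and 49.0%.

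**Figure D3:**
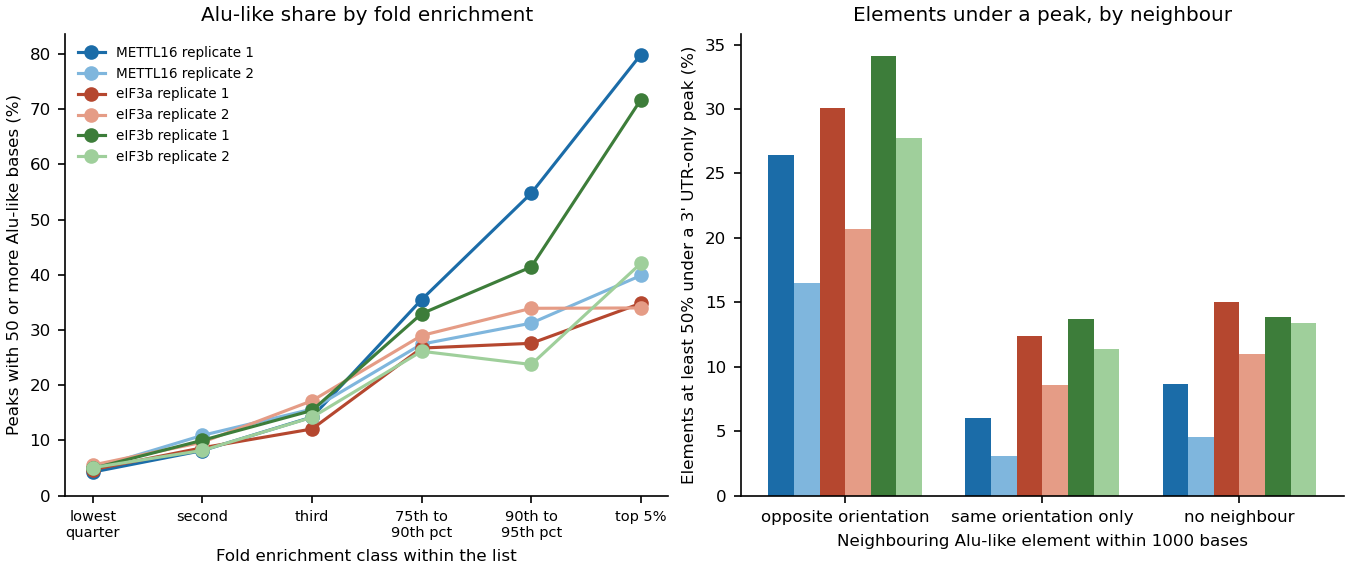
Left, percent of 3′ UTR-only peaks with at least 50 Alu-like bases, by class of fold enrichment within each list (points and lines, 6 lists). Right, percent of Alu-like elements at least 50% under a 3′ UTR-only peak, by the orientation of neighbouring elements within 1000 bases (bars, 6 lists): 16.5% to 34.1% with an opposite neighbour and 3.07% to 13.7% with same-orientation neighbours only.

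The METTL16 3′ UTR itself carried such elements. Its strongest peak had a fold enrichment of 67.5 and 38.1 in the METTL16 lists, 10.5 and 6.53 in eIF3a and 30.5 and 16.9 in eIF3b. Both METTL16 values lay above the other 4. In each list a peak lay over the sense element at bases 2609 to 2836 and a peak over part of the antisense element at bases 1431 to 1661 after the stop codon. The METTL16 lists come from cells overexpressing METTL16, and whether the vector carried any 3′ UTR sequence is not given in the sources used here.

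MAT2A had 3′ UTR-only peaks in 5 lists, with fold enrichments of 5.27 in METTL16 replicate 2, 3.49 and 3.44 in eIF3a and 1.75 and 5.18 in eIF3b, and none in METTL16 replicate 1. The METTL16 replicate 2 peak ran from base 824 to base 1359 after the stop codon and covered 4 of the 5 recognition sequences printed above, all but that at base 40. The peak of eIF3a replicate 2, at bases 1240 to 1448, covered the one at base 1350. The peaks of eIF3a replicate 1 (bases 199 to 467), eIF3b replicate 1 (bases 318 to 407) and eIF3b replicate 2 (bases 110 to 734) covered none of them. A METTL16 peak over these matches was thus seen in 1 of 2 replicates.

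**Figure D4:**
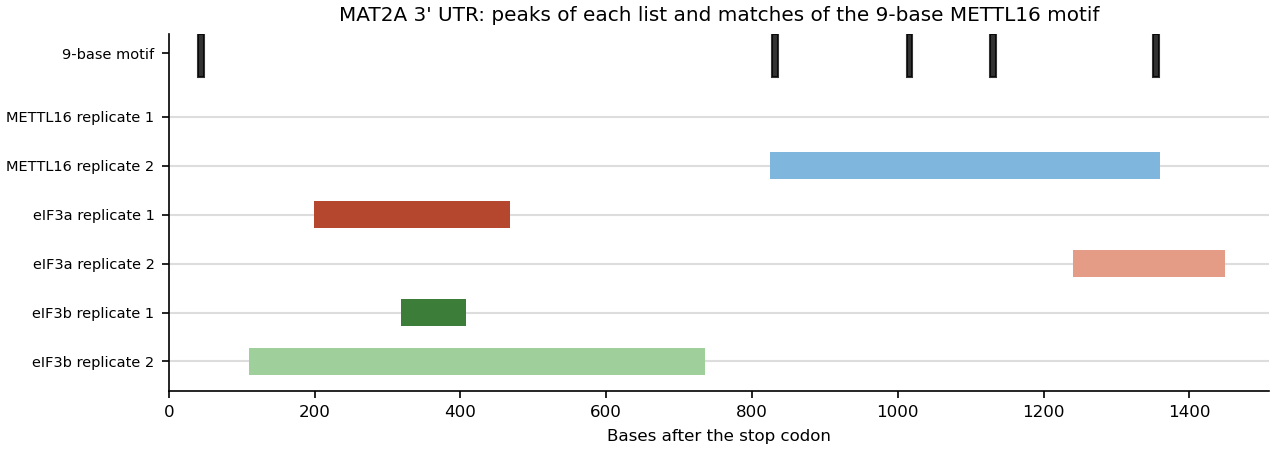
The MAT2A 3′ UTR in bases after the stop codon, with the 3′ UTR-only peaks of each list as bars and the 5 matches of the 9-base METTL16 recognition sequence as black marks. The METTL16 replicate 2 peak, from base 824 to 1359, spans 4 of the matches, and METTL16 replicate 1 has no bar.

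Among the other genes set beside MAT2A, TFRC, the transferrin receptor whose mRNA is stabilised through iron-responsive elements in its 3′ UTR, had peaks in 5 lists. Its fold enrichments were 1.56 in METTL16 replicate 1, 3.71 and 2.59 in eIF3a and 2.05 and 3.05 in eIF3b, and none in METTL16 replicate 2. All of them overlapped bases 1373 to 1462 after the stop codon. EIF3B itself had 3′ UTR-only peaks in both METTL16 lists (1.65 and 3.78), eIF3a replicate 1 (1.56) and eIF3b replicate 2 (1.37), and CDC42BPA, a kinase bound by CDC42, in the 4 eIF3a and eIF3b lists at 2.20 to 4.22, at positions that differed between most lists. EIF3A, IGF2 and SLC11A2 had no 3′ UTR-only peak.

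The peaks were GC-rich. Mean GC content of the 150-base windows was 55.4% and 57.5% in METTL16, 49.1% and 51.3% in eIF3a and 55.1% and 50.4% in eIF3b, against 40.9% to 45.4% in the tiles of the same 3′ UTRs without a peak. The difference was 10.5 ± 1.90 points (SD over 6 lists), higher in 6 of 6 lists (exact two-sided sign-flip permutation test, p = 0.031, the smallest possible, adjusted p = 0.0625 over 4 tests). Without peaks and tiles holding at least 50 Alu-like bases it was 10.8 points. All 3′ UTR bases of the genes tested had a GC content of 42.5% and their coding bases 52.3%, and the 159767 bases under a 3′ UTR-only peak in every list, in 565 genes, had 56.9%.

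Short regulatory motifs were then searched on the transcript strand of windows and tiles, and their share was also counted in all 139525 tiles over the 3′ UTRs of genes with a peak. The AU-rich element core ATTTA was in 25.8% of these tiles. Its longer form TTATTTATT, which includes the core, was in 0.76%. The Pumilio site TGTANATA was in 3.18% and the polyadenylation signal AATAAA in 14.8%. The m6A consensus core GGACT was in 11.0%. The METTL16 sequence ACAGAGA was in 1.49%, and its longer form TACAGAGAA, which includes it, was in 0.13%. The match CTACCTC to the let-7 seed was in 0.921%. The match ACACTCC to the miR-122 seed was in 0.673%.

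AU-rich motifs were scarce in the peaks. ATTTA was in 4.70% and 4.40% of windows in METTL16, 14.0% and 9.74% in eIF3a and 4.86% and 12.1% in eIF3b, against 21.3% to 27.6% of tiles, a difference of -16.7 ± 2.49 points. AATAAA differed by -8.86 ± 1.21 points, TGTANATA by -1.70 ± 0.553 and TTATTTATT by -0.542 ± 0.0749. Tiles were laid backward from the transcript end, where peaks were few. Against only those tiles before the last peak of each 3′ UTR, AATAAA differed by -5.17 points. GGACT was higher in the windows by 3.90 ± 0.797 points, with 13.6% to 16.0% against 10.5% to 12.3%, ACACTCC by 0.413 ± 0.185 and ACAGAGA by 0.339 ± 0.158. The ACAGAGA excess was not particular to METTL16: it was 0.279 and 0.342 points there, 0.407 and 0.448 in eIF3a and 0.0578 and 0.501 in eIF3b. Each of these 7 motifs went the same way in 6 of 6 lists (exact sign-flip permutation test, p = 0.031, adjusted p = 0.0402 over 9 motifs). That p is the smallest that 6 lists allow, so the adjusted value depends only on how many of the 9 motifs reached it. Some motifs contain others, and the lists share genes and the cell line, so p measures only how uniform the lists were. TACAGAGAA (-0.0389 ± 0.0668 points, adjusted p = 0.281) and CTACCTC (-0.0092 ± 0.114, adjusted p = 0.875, same exact permutation test) were not separable from 0.

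Most motif differences were smaller against tiles of like GC content. With tiles weighted to the GC content of the windows, ATTTA differed by -2.54 ± 0.809 points, AATAAA by -1.76 ± 0.409 and TTATTTATT by -0.164 ± 0.0443, still lower in 6 of 6 lists, and ACAGAGA by 0.365 ± 0.137, higher in 6 of 6 (adjusted p = 0.0563 each, same exact permutation test). CTACCTC, with no clear difference against all tiles, was then lower in 6 of 6 lists, by -0.188 ± 0.171 points (exact permutation test, adjusted p = 0.0563). GGACT then differed by 0.448 ± 0.532 points, higher in 4 of 6 lists, and TGTANATA by 0.0365 ± 0.405, higher in 3 of 6. ACACTCC was then higher in 5 of 6 lists, by 0.112 ± 0.202 points.

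**Figure D5:**
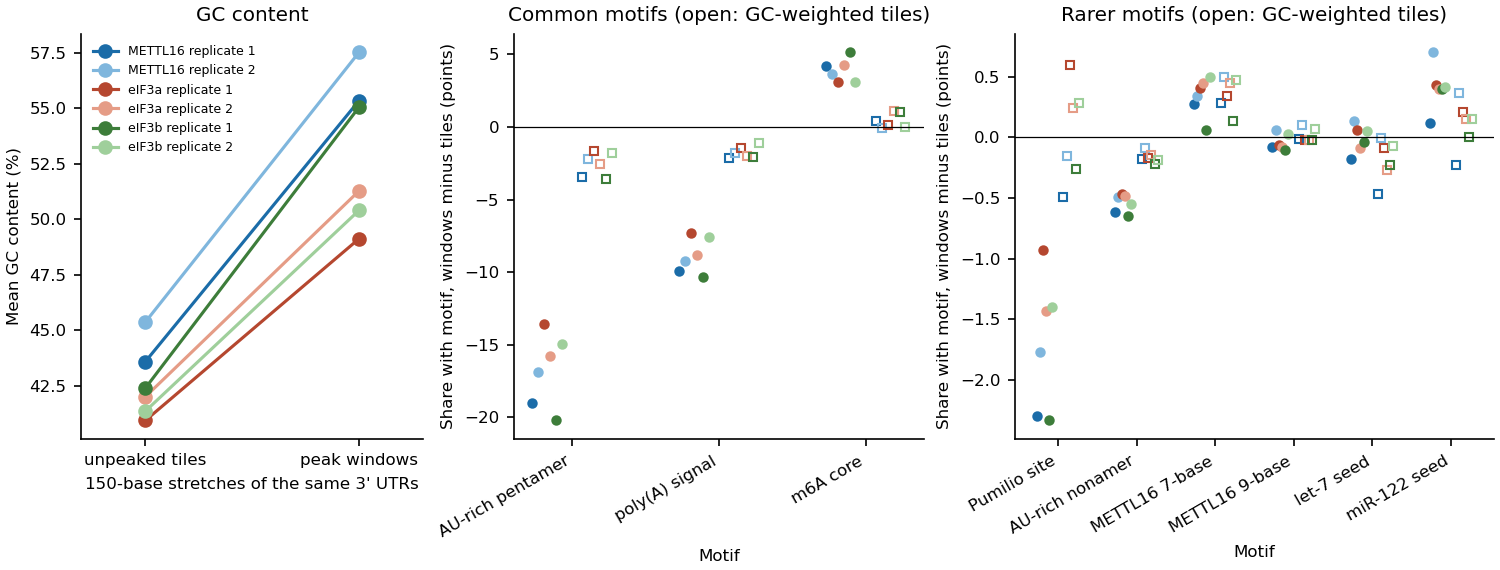
Left, mean GC content (percent) of unpeaked 150-base tiles and of peak windows of the same 3′ UTRs, with a line per list. Middle and right, share of windows minus share of tiles with each motif in percentage points (filled circles, all tiles; open squares, tiles weighted to the GC content of the windows), where the AU-rich pentamer moves from -16.7 to -2.54 points on average.

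MicroRNA seed matches were looked up under the peaks. The mature sequences from RefSeq (GRCh38.p14), with seed bases 2 to 8 in capitals, are shown with a match of each seed that lay under a peak in all 6 lists, where capitals mark the match:
hsa-let-7a-5p: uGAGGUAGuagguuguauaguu
IGF1R, chr15:98964093-98964119, plus strand: cagagtttgtCTACCTCtgggtatccc
hsa-miR-122-5p: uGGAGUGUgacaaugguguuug
SLC7A5, chr16:87830431-87830457, minus strand: ctttttctccACACTCCactgacaaac

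IGF1R codes for the insulin-like growth factor receptor and SLC7A5 for a large neutral amino acid transporter. Of 985 CTACCTC matches in 3′ UTRs of genes with a 3′ UTR-only peak, 16 lay under a peak in every list, and 5 of these 16 were in Alu-like sequence. Of 737 ACACTCC matches, 11 did, 1 of them in Alu-like sequence. No TACAGAGAA match of 143 did, nor did more than 7 of 3362 TGTANATA matches. By the same count, 169 of 12810 GGACT, 21 of 1654 ACAGAGA and 35 of 32768 ATTTA matches did. The bases under a peak in every list were 159767 of the 21728814 3′ UTR bases of all genes tested. That is a wider set than the genes with a 3′ UTR-only peak, in which the matches were counted. The share of bases is therefore not a like baseline for the motif counts. Whether any motif departed from a like share was not tested. SLC7A5 was also among the genes with the most bases under a peak in every list, 1737 of 2947, at moderate fold enrichments of 2.66 to 4.46 and without Alu-like sequence. FOXK1, a forkhead transcription factor, had 2795 such bases, PGPEP1, a peptidase, 1983, and CASTOR2, an arginine sensor subunit of the mTORC1 pathway, 1594.

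Gene groups known for 3′ UTR regulation were counted next, beside the shares of all genes given above. Of 20 let-7 target genes, 9 had a 3′ UTR-only peak in both METTL16 replicates (45%, against 11.5% of all genes), 14 in eIF3a (70%, against 18.1%) and 16 in eIF3b (80%, against 22.6%), and 9 had one in all 6 lists. Their median 3′ UTR of 4109 bases falls in the longest length class. ARID3B, a DNA-binding protein, had fold enrichments of 11.5, 6.55, 4.81, 5.37, 5.57 and 6.85 in list order, and IGF1R 7.15, 7.42, 4.55, 7.85, 5.53 and 8.60. NRAS, the GTPase, had 1.69 to 2.79. Its let-7 seed match at base 186 after the stop codon was under no peak, and neither was that of ARID3B at base 2342.

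Of 28 genes with AU-rich elements that were tested, 7, 10 and 12 had such peaks in both replicates of METTL16, eIF3a and eIF3b, and 6 in all lists. These are 25%, 35.7% and 42.9%, against 11.5%, 18.1% and 22.6% of all genes, with a median 3′ UTR of 1747 bases. LIF, a cytokine, had 7.28, 15.5, 4.96, 2.86, 10.3 and 8.32. CCND1, a cyclin of the G1 phase, had 2.12 to 6.84, and VEGFA, the angiogenic growth factor, 2.05 to 6.35. Of 43 genes for 3′ UTR-binding and decay factors, 10, 19 and 17 had such peaks (23.3%, 44.2% and 39.5%) and 9 in all lists (20.9%, against 7.74% of all genes). Their median 3′ UTR of 3275 bases also falls in the longest class. ELAVL1, which codes for the AU-rich element binding protein HuR, had 18.5, 4.76, 8.68, 3.06, 11.4 and 7.34, where the first METTL16 value was well above the other. CELF1, a binder of GU-rich elements, had 3.44 to 8.77. IGF2BP1 and IGF2BP2, m6A readers, had 2.68 to 5.26 and 2.58 to 4.32. DDX6, a helicase of processing bodies, had 2.47 to 4.61 in 5 lists and 47 in eIF3b replicate 2.

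Of 10 miR-122 target genes, 2, 5 and 4 had such peaks (20%, 50% and 40%, against 11.5%, 18.1% and 22.6% of all genes) and 2 in all lists. SLC7A1, a cationic amino acid transporter under control of miR-122 in liver cells, had 2.15 to 3.84. Of its 3 miR-122 seed matches, that at base 1364 lay under a peak in 2 lists, that at base 4110 in 1 and that at base 1091 in none. Of 16 selenoprotein genes, whose 3′ UTR holds the SECIS element needed to read a stop codon as selenocysteine, 3, 3 and 4 had such peaks and 2 in all lists. These were TXNRD1, a thioredoxin reductase (1.60 to 2.99), and GPX3, a glutathione peroxidase (1.32 to 2.85). The shares of the group were 18.8%, 18.8% and 25%, against 11.5%, 18.1% and 22.6% of all genes, and its median 3′ UTR had 857 bases.

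Some genes had 3′ UTR peaks for 1 protein only. Genes with 3′ UTR-only peaks in both replicates of a protein and no peak base on the 3′ UTR in the other 4 lists numbered 14 of 1230 for METTL16, 53 of 1935 for eIF3a and 86 of 2421 for eIF3b. RGS4, a regulator of G protein signalling, had the same peak at bases 113 to 293 after the stop codon in both METTL16 replicates (11.3 and 11.9). ITGB3, an integrin, also had an identical span (7.95 and 28.6), and GAS2L1, a cytoskeletal linker, had 9.93 and 19.1 in overlapping peaks. TNS4, a tensin (13.2 and 6.35), and C19orf25 (3.97 and 3.03) had peaks that did not overlap between the METTL16 replicates. For eIF3a, HCN3, an ion channel, had 22.3 and 67.3, KATNAL2, a katanin-like protein, 29.8 and 25.7, and MSI1, a neural RNA-binding protein, 19.8 and 20.8. The strongest MSI1 peaks lay apart, and a weaker peak of replicate 1 (14.9, bases 578 to 637) lay within that of replicate 2 (bases 548 to 667). FAM234B had 19.8 and 13.5 in overlapping peaks and TMC8, a transmembrane channel-like protein, 22.3 and 13.5, with the strongest peaks apart. For eIF3b, NR1I2, the pregnane X receptor of the liver, had 20.6 and 14.7, and ACKR2, a scavenging chemokine receptor, 17.8 and 26.4. The peaks of MLH3, a mismatch repair protein, overlapped between the eIF3b replicates. The strongest peaks of AQP3, a water and glycerol channel, lay apart, with a weaker one shared, and the peaks of C17orf107 did not overlap. The deposited p-values of the ITGB3 peak were 0.0013 and 3.8e-06, and those of the RGS4 peak 3.5e-05 and 0.00017. Fold enrichments recurred between eIF3a genes, such as 22.3 in replicate 1 for HCN3 and TMC8 and 13.5 in replicate 2 for FAM234B and TMC8. In eIF3b replicate 2, AQP3, C17orf107 and MLH3 shared the same value. How few reads lie behind such values is unknown. Whether the lack of a peak in the other 4 lists reflects a difference between proteins was not tested.

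The cell type was checked against its markers. Of 10 hepatocyte and HepG2 markers, 9 had a peak of any class in some list, and SERPINA1 and HNF4A had a 3′ UTR-only peak in all 6. ALB had a peak in 1 list, AFP in 2, and TTR in none. Of 3 markers of other cell types, the endothelial PECAM1 had peaks in 4 lists, the leukocyte PTPRC in 1 and the fibroblast COL1A1 in none, and no 3′ UTR-only peak lay on them. A peak is enrichment over input and not a level of expression.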

How the data were processed

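Peak lists of 6 RIP samples were used. Per the authors, STAR aligned the reads (GRCh38), and exomePeak, run with its defaults, called the peaks. Tool versions, the annotation and the pairing of inputs are not given in the sources used here. Libraries were made with a stranded kit after depletion of ribosomal RNA. The deposited columns used were the p-value, the log10 p-value, taken as a score for ranking, and the fold enrichment, a ratio of RIP to input. No read counts were used here, so depth is unknown and intervals for counting error were not computed.

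Peaks were placed on canonical transcripts of GENCODE 44 with Python 3.11.15, by gene name and position (10291 of 10830 names by current and 464 by older symbol). Of inner block starts, 97.8% to 98.1% coincided with exon starts, which fixed the coordinate base. Placement was tested on simulated data, where 799 of 800 planted peaks were classed as planted. Windows and tiles were 150 bases. Alu-like stretches came from blastn (BLAST+ 2.17.0, E value at most 1e-05, queries RN7SL1, RN7SL2 and BCYRN1). The members, gene lists and motifs were chosen with earlier results of these data known. Named genes were the 10 with the highest minimum fold enrichment over the 6 lists, 5 per protein with 3′ UTR peaks in its lists only, the 5 with most bases under a peak in every list, and up to 6 per gene list. Tests were exact permutation tests over lists, with Benjamini-Hochberg adjustment. Replicates were called biological by the study; p-values measure only the spread between these lists. Some sequences and 1 marker gene are not reported here.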

Additional observations from a re-analysis of the deposited data

How the results depend on the processing

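The 6 lists are few, read depth is unknown, and lists of a control antibody were not used here. Directions of the fold enrichment, GC content, ATTTA, TTATTTATT and AATAAA differences held under each alternative run on them. That of TGTANATA turned with GC-weighted tiles.

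A fold enrichment of at least 4 gave 3′ UTR-only shares of 30.4%, 38.4% and 35.9% for METTL16, eIF3a and eIF3b, relative positions of 0.483, 0.523 and 0.495, gene counts of 563, 592 and 973 in both replicates and 261 in all lists. Motif differences then were -15.8 points for ATTTA, -0.458 for TTATTTATT, -1.69 for TGTANATA, -7.97 for AATAAA, 3.15 for GGACT, 0.195 for ACAGAGA, 0.336 for ACACTCC and 0.102 for CTACCTC, the last with turned sign, and none passed the threshold. The 5000 peaks with the smallest p-value per list gave shares of 30.6% (eIF3a) and 24.4% (eIF3b), positions of 0.48 (METTL16) and 0.495 (eIF3b), counts of 457, 600 and 577 and 234 in all lists, and differences of 0.0646 for CTACCTC (turned) and 0.279 for ACACTCC, which lost its call (adjusted p = 0.281, exact permutation test). The eIF3b position was 0.472 without coding bases of any transcript and 0.471 with at least 50% of the peak on the 3′ UTR. Counting bases under peaks gave positions of 0.465 (METTL16) and 0.479 (eIF3b). A peak in either replicate gave 2801, 4415 and 4331 genes. With an overlap of 1 base the recovery difference turned to -1.52 points. Windows of 100 bases gave 0.244 for ACAGAGA, which lost its call (adjusted p = 0.0703, exact permutation test), and 0.0859 for CTACCTC (turned, adjusted p = 0.0402 by the exact permutation test), and windows of 200 bases 0.0734 for CTACCTC. GC-weighted tiles, with which no motif passed the threshold, gave -0.188 for CTACCTC (adjusted p = 0.0563, exact permutation test), -2.54 for ATTTA, -0.164 for TTATTTATT, -1.76 for AATAAA, 0.448 for GGACT, 0.365 for ACAGAGA, 0.112 for ACACTCC, 0.0365 for TGTANATA and 0.0149 for TACAGAGAA, the last 2 with turned sign. The causes of these shifts were not tested.

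Leaving out peaks and tiles with Alu-like sequence was added after seeing the data. It gave shares of 30.1% (eIF3a) and 24.97% (eIF3b) and positions of 0.449 (METTL16) and 0.467 (eIF3b). The fold difference was 0.22 on the log2 scale, the width difference -15.3 bases and the GC difference 10.8 points (adjusted p = 0.0417 each, exact permutation test). Fold and GC had the same smallest possible p as in the main run. Their adjusted p fell from 0.0625 only because the width difference also reached that p. The fold difference itself was smaller than the 0.34 of the main run. The recovery difference was -3.10 points, and CTACCTC differed by 0.000705. Tiles before the last peak of each 3′ UTR, also added later, changed no call but moved the AATAAA difference to -5.17 points.

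Leaving out 1 list at a time, with 5 lists and a smallest possible p of 0.0625, gave motif differences of -17.4 to -16.0 (ATTTA), -0.557 to -0.521 (TTATTTATT), -1.85 to -1.57 (TGTANATA), -9.17 to -8.57 (AATAAA), 3.65 to 4.06 (GGACT), 0.307 to 0.395 (ACAGAGA), 0.354 to 0.471 (ACACTCC) and -0.0375 to 0.0251 (CTACCTC), and a recovery difference of -1.26 to 2.15, which turned without either eIF3a list. The Jaccard difference ran from 0.0066 (without METTL16 replicate 2) to 0.0721 (without eIF3a replicate 1). Genes with a peak in the list left numbered 1802 to 2229 for METTL16, 2285 to 4065 for eIF3a and 3170 to 3582 for eIF3b.

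Replicate numbers are shared between proteins, but nothing in the labels pairs them, and the replicate differences in peak bases per gene correlated at -0.0997 to -0.0653 between proteins. With a replicate block the share differences stayed at -10.5, -4.93 and 5.53 points (exact permutation p = 0.5, 1 and 0.5), and the Jaccard difference was 0.0421 with no p. With 0.5 as the smallest p that the block allows, no call could have changed.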
